A study of Mus musculus with 9 samples.

Results

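Sites of open chromatin that were called in untransfected Anp32e null mouse embryonic fibroblasts (MEFs) and in no other group were examined. Peaks of 4 ATAC-seq peak lists were merged into sites on chromosomes 1 to 19 wherever they overlapped or touched, and a site was kept if it held a null peak and no peak of the other lists. This left 3719 null-alone sites of 125387 merged sites, or 2.97%. They made up 4.76% of the 78153 sites with a null peak (95% Wilson interval 4.61 to 4.91%). Every null-alone site held exactly 1 null peak. Because the calls chose the sites, their fold, pileup and pattern of calls are described without a test.

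All 9 libraries came from primary MEFs below passage 8, 3 from wild-type (WT) embryos and the rest from Anp32e null embryos, which lack the histone chaperone ANP32E. The null cells were left untransfected (null, 3 libraries), transfected with a non-targeting siRNA pool (NT siRNA, 1 library) or transfected with a pool of siRNAs against the histone variant H2A.Z (H2A.Z siRNA, 2 libraries). The absence of ANP32E was thus shared by the null list and both siRNA lists, and handling for transfection by the siRNA lists. Peaks had been called on the merged libraries of a group, so there was 1 list per group and no replicate check of any difference. Wilson intervals cover counting error only, and neighbouring sites are not independent.

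In ATAC-seq the Tn5 transposase inserts adapters where DNA is free of nucleosomes, and peaks of inserted fragments mark promoters, enhancers and insulators. ANP32E removes H2A.Z from chromatin, and H2A.Z is found at the nucleosomes that flank active promoters and enhancers. In fibroblasts many distal enhancers are bound by AP-1, a dimer of FOS and JUN proteins, together with TEAD and RUNX factors, whereas CTCF binds insulators and the anchors of chromatin loops.

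Sequences of null-alone sites of high fold that carried an AP-1, a TEAD or a CTCF consensus within 60 bp of the summit are shown, since these 3 consensus sequences carry the comparisons that follow. Each run is the plus strand of GRCm38 around the summit, from RefSeq, with the match of the consensus it is labelled by in capitals. The TEAD run of chromosome 5 also holds an AP-1 match, which is left in lower case. AP-1 was searched as TGANTCA and TEAD as GGAATG, both strands, and the CTCF core by its name.
AP-1 member, chr3:134162394-134162514: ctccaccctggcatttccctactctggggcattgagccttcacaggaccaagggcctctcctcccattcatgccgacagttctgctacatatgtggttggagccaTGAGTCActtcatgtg
AP-1 member, chr3:148029144-148029264: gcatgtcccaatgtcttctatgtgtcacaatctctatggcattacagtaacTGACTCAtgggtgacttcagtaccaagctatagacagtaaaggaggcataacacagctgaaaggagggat
AP-1 member, chr3:139382100-139382220: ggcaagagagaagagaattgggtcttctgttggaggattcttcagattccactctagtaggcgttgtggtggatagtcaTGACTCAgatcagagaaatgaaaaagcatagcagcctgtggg
AP-1 member, chr4:92171935-92172055: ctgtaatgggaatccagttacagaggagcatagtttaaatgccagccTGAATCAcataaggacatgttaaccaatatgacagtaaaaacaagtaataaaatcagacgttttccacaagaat
TEAD member, chr2:109840369-109840489: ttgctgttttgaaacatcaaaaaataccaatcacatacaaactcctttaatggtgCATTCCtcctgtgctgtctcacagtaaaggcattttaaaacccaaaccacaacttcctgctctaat
TEAD member, chr5:51565232-51565352: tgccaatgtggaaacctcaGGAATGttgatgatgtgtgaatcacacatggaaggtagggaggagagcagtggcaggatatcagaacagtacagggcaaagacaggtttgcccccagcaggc
TEAD member, chr17:93580769-93580889: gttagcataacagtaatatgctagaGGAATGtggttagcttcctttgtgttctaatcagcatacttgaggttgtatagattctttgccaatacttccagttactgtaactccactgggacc
CTCF member, chr1:176223357-176223477: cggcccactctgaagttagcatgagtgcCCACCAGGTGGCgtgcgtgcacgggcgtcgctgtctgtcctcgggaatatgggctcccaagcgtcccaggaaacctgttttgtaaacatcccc
CTCF member, chr19:36538627-36538747: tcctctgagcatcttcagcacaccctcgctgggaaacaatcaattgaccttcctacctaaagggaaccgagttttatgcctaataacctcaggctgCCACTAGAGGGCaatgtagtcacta

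The first AP-1 site was also the null-alone site of highest fold. Its peak, chr3:134162375-134162610, lay in an intron of the annotated transcripts Gm26691 and Gm43192, 74037 bp from the TSS of the nearest protein-coding gene, Cxxc4, and had a summit of 69 fragments and a fold of 11.45. Repeats were soft-masked over 76.6% of the window of 100 bp on either side of its summit, and the part this played in the call was not tested. The first TEAD site was second in fold. It was the peak chr2:109840330-109840548, which had 89 fragments and a fold of 11.05, lay between genes 50424 bp from Lin7c, and was 2274 bp from the nearest WT peak. The second TEAD site lay in an intron of Ppargc1a, which encodes the transcriptional coactivator PGC-1α, 2434 bp from a TSS, at a fold of 7.52. The first CTCF site shown lay in an intron of Pld5 at a fold of 5.72, with a summit of 34 fragments.

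The null-alone sites were weak and narrow peaks. Fold enrichment at the summit, the ratio of fragment pileup to local background as deposited, had a median of 2.94 (quartiles 2.62 and 3.43) and reached 11.45. The median summit held 18 fragments (range 13 to 120), and the median width was 287 bp (215 to 1183). Their median percentile of fold among null peaks was 11.3. In the null sites found in all 4 lists, the median fold was 6.71, the summit 59 fragments and the width 685 bp. The local background exceeded the genome-wide one at 28.7% of null-alone sites and at 76.4% of sites of all 4 lists. The share of null sites that were null-alone fell over 10 groups of rising null fold, from 21.2% (20.3 to 22.1%) in the lowest to 6.62% in the third, 1.79% in the fifth and 0 of 7816 sites in the highest, where the upper Wilson bound was 0.0491%.

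Depth differed between the lists that decided membership. The genome-wide background was 5.12 fragments per position in null, compared with 8.85 (WT), 3.88 (NT siRNA) and 17.8 (H2A.Z siRNA) in the lists that had no call. At these backgrounds the lowest callable fold was 2.29 in null and 2.03, 2.46 and 1.75 in the others, in the same order. Of the null-alone sites, 3705 had a null fold at or above the lowest callable fold of WT, 3206 (86.2%) that of NT siRNA and 3718 that of H2A.Z siRNA. These limits hold at the genome-wide background, and where the local background is raised a lower fold can be called: 3627 members reached the value of the null list itself. A null fold of at least 1.5 times the NT siRNA value was found at 712 null-alone sites (19.1%), and 2 times that value at 145 (3.9%). When the null pileups were scaled down to the NT siRNA depth, 3307 null-alone sites were left.

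**Figure D1:**
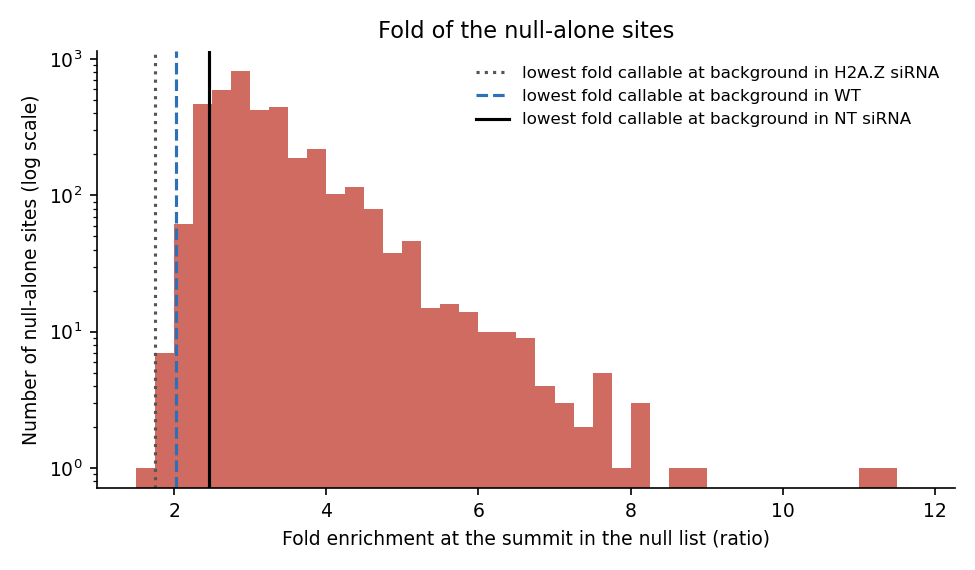
Histogram of the fold enrichment at the summit (x axis, ratio) of the 3719 null-alone sites, with their number on a log scale (y axis). Vertical lines mark the lowest fold that was callable at the genome-wide background in H2A.Z siRNA (1.75), WT (2.03) and NT siRNA (2.46), and 3206 sites lie at or above the highest of the 3.

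The number of null-alone sites followed the calling threshold and the definition of a shared site. It was 1197 when null peaks needed a −log10 q of 5 or more, 1687 when all lists did and 5715 when every list was cut to equal length. Under a reciprocal overlap of 50% it was 7770, counted on single null peaks and not on merged sites.

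Sites close to the edge of the rule had similar values on either side. The nearest members just inside were 1 bp from an H2A.Z siRNA peak, chr19:43387451-43388018 with a fold of 2.62 and chr10:77751014-77751422 with a fold of 2.54. The next lay 2 bp from a WT peak at chr4:125703284-125703575, with a fold of 3.27. Just outside, chr2:93893797-93894038 shared 1 bp with an H2A.Z siRNA peak and had a null fold of 2.94, and chr2:174199897-174200372 shared 1 bp with a WT peak and had a null fold of 2.78. Few sites were so placed. Only 72 members (1.94%) lay within 100 bp of a peak of another list and 630 (16.9%) within 1 kb, while the median gap was 5123 bp and 143 members lay over 100 kb from any. To the nearest WT peak the median gap was 7543 bp, compared with 8854 bp to NT siRNA and 7351 bp to H2A.Z siRNA. The median distance to the next null peak was 7387 bp.

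The null-alone sites were 1 of several classes without a WT peak. Of 13651 null sites with no WT peak, 6872 (50.3%) were also called in both siRNA lists, 3719 (27.2%, 26.5 to 28%) in neither, 2604 (19.1%) in H2A.Z siRNA and 456 (3.34%) in NT siRNA. Among the sites without a WT peak, members had a median fold of 2.94 and a width of 287 bp, and those in every null list had 3.54 and 347 bp. The mirror class, sites called in WT and in no other list, held 8635 of 79847 WT sites (10.8%, 10.6 to 11%), with a median fold of 2.64 within the deeper WT list and a width of 317 bp.

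The cell type label was checked at TSSs. A peak within 1 kb of a TSS was called for 10 of 10 fibroblast genes in the null list and both siRNA lists and for 9 in WT, where Thy1 had none. TSS peaks were also called at genes of other cell types, for 5 of 6 epithelial, 3 of 4 endothelial, 2 of 4 blood, 3 of 5 neural and 2 of 3 muscle genes in the null list. The WT list had 4, 4, 2, 3 and 1 of these, respectively. Both siRNA lists had 6 of 6 epithelial, 4 of 4 endothelial, 3 of 5 neural and 0 of 3 muscle genes, and blood genes were 2 of 4 under the NT control and 3 of 4 after H2A.Z knockdown. The part of these genes in the null-alone sites was not tested.

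Most null-alone sites were distal. A promoter, defined as 1 kb on either side of any annotated TSS, was overlapped by 363 members (9.76%, 8.85 to 10.8%, range over autosomes 4.46 to 14.4%). The share was 10.4% (9.75 to 11%) in WT-alone sites, 11.1% (10.4 to 11.9%) in sites of every null list without WT and 29.9% in sites of all 4 lists. The difference from WT-alone sites was within counting error, and its direction turned under 5 of the other settings. Among null-alone sites, 1915 (51.5%) had their summit 10 to 100 kb from a protein-coding TSS and 992 (26.7%, 25.3 to 28.1%) over 100 kb from one. Over 100 kb, the share was 25% (24.1 to 26.0%) in WT-alone sites, 19.9% (19 to 20.8%) in sites of every null list without WT and 14.7% in sites of all 4 lists. Null-alone summits were therefore over 100 kb from a protein-coding TSS about as often as WT-alone summits and more often than those of sites that kept their call in both siRNA lists, beyond counting error. Such summits can lie within genes, as in introns of Stpg2 and Lingo2. By summit, 49.5% of members lay in introns, 7.64% in exons and 42.9% (41.3 to 44.5%) outside all genes, compared with 44.1% of WT-alone sites and 39% of sites of every null list without WT, and 49.8% (48.2 to 51.4%) lay in the body of a protein-coding gene. Gene bodies held 47.9% (46.8 to 49.0%) of WT-alone sites, 53.8% (52.6 to 55.0%) of sites of every null list without WT and 54.7% of all null sites, and exons held 7.23%, 7.9% and 14.9%.

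Base composition set the members apart from sites shared by all lists. Median GC content within 100 bp of the summit was 47.3% in members (autosome medians 45.5 to 49.3%), 46.8% in WT-alone sites, 48.3% in sites of every null list without WT and 50.2% in sites of all 4 lists. In windows 2 kb from the members' summits it was 43.8%. At least 50% of the window was soft-masked in 280 members (7.53%, 6.72 to 8.42%), compared with 7.05% of WT-alone sites, 4.98% of sites of every null list and 2.62% of sites of all 4 lists.

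The strongest members were mostly distal, as were the members as a whole. The other 8 of the 10 of highest fold were at chr16:88511254-88511669 between genes (fold 8.83, 53 fragments), chr3:148029075-148029353 between genes (8.5, 51 fragments), and chr3:139381581-139382243 in an intron of Stpg2 (8.18, 49 fragments), followed by 5 others between 7.69 and 8.01. Of these 5, one lay in an intron of Lingo2, a neuronal leucine-rich repeat membrane protein, 296709 bp from its nearest coding TSS, and one in an intron of Adgrl3, a latrophilin adhesion receptor. Another, at chr18:58614751-58615507 with a fold of 7.85, carried a CTCF core. The 50 strongest members had folds of 6.05 or more. Among these 50, 27 lay over 100 kb from a protein-coding TSS, 3 overlapped a promoter, 19 had an AP-1 match and 5 were at least 50% soft-masked. In all members the shares were 26.7, 9.76, 21.1 and 7.53%, in the same order.

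The null-alone sites at coding promoters were few and differed in sequence from the other members. Summits of 155 members (4.17%) lay within 1 kb of a protein-coding TSS. The share was about the same in WT-alone sites (4.16%) and in sites of every null list without WT (4.28%), and 17.9% in all null sites. Of the 155, 114 (73.5%) were at a TSS with no peak of another list within 1 kb. At 33 the TSS also had a WT peak beside the member. Their median fold was 2.80, and the highest was 6.38. The median GC content was 55.7%, compared with 47.3% in the other members, and the median number of CpG dinucleotides in the window was 5, compared with 2. An SP1 consensus, GGGCGG, was present in 16.8% of promoter members and in 2.89% of the others, while an AP-1 consensus was present in 7.1% and 21.7%. Promoter sites of other classes were not examined for these traits.

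The promoter member of highest fold, 6.38, lay 969 bp from an internal TSS of Cobl, an actin nucleator, and this TSS had peaks in all the other lists as well. Next came Scg2, which encodes secretogranin II of secretory granules. Its member, chr1:79439848-79440166, had a summit of 29 fragments 17 bp from the TSS and a fold of 4.91, and no other list had a peak within 1 kb of that TSS. At Tmem150c the fold was 4.76, and the H2A.Z siRNA list also had a TSS peak. No other list had a TSS peak at the next 2 promoters, both of internal transcripts. They were of Anks1b, an ankyrin-repeat protein of synapses (fold 4.74), and of Nebl, the actin-binding nebulette (4.61). The widest member of all, 1183 bp at chr10:45469128-45470310, lay with its summit 49 bp from an internal TSS of Lin28b, the RNA-binding inhibitor of let-7 maturation, with a fold of 3.92 and 23 fragments. The other 4 of the 5 widest members were 984 to 1007 bp wide, had folds of 2.78 to 3.76 and lay 10664 to 199667 bp from the nearest coding TSS.

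Among members, 6 of the 12 consensus sequences searched were more frequent at the summit than beside it, beyond counting error. AP-1 was present in 783 members (21.1%, 19.8 to 22.4%) and in 5.85% (5.34 to 6.4%) of the windows 2 kb away. TEAD was present in 21.5% (20.2 to 22.8%) and 10.7%, and RUNX, searched as TGTGGT, in 21.5% and 14.4%. The E-box CAGCTG was present in 12.8% (11.8 to 13.9%) and 7.7%, and the CTCF core in 181 members (4.87%, 4.22 to 5.61%) and in 146 of 7438 windows away. NF-Y, CCAAT, was less frequent in members than beside them, at 23.4% and 27.0%, as was GATA, searched as AGATAA, at 8.55% and 11.9%. The homeobox core TAATTA was likewise less frequent, at 4.28% and 6.56%. SP1 was also more frequent in members, at 3.47% (2.93 to 4.11%) and 2.1% (1.8 to 2.45%). ETS, CCGGAA, was present in 2.1% and 1.65%, with overlapping intervals, and CRE, TGACGTCA, in 0.134% and 0.0807%, while TTGCGCAA of CEBP was found in 0 of 3719 members (upper Wilson bound 0.103%). Matches were counted on both strands, and overlapping matches of different consensus sequences counted for each. None of AP-1, TEAD, RUNX, CTCF and E-box was present in 1459 members (39.2%).

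**Figure D2:**
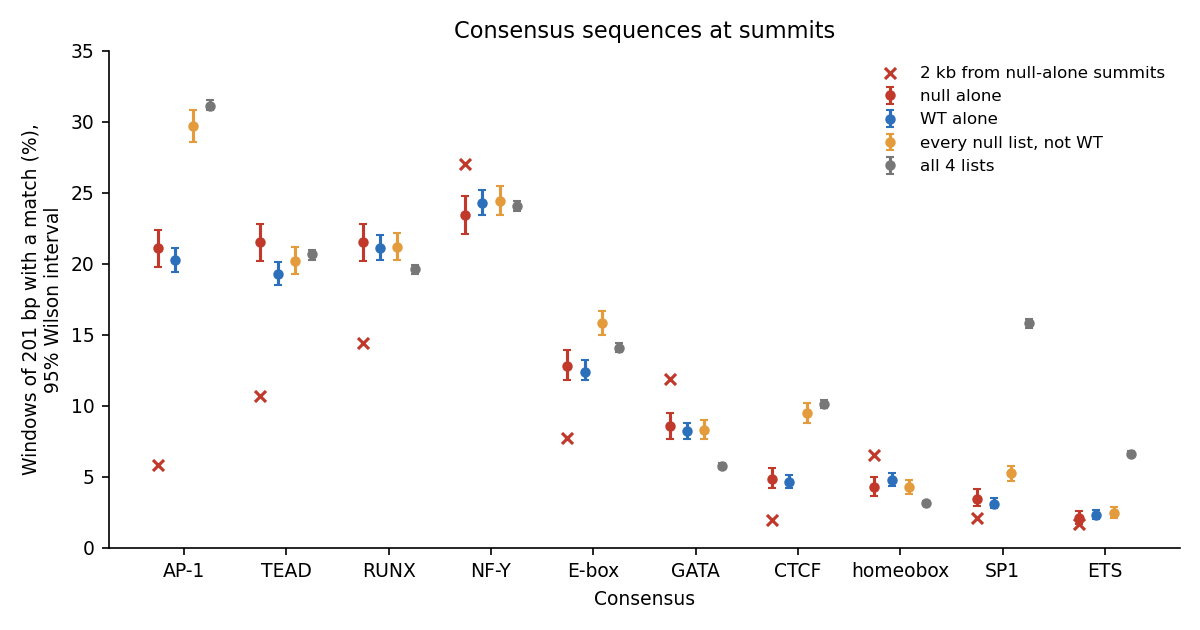
Share of summit windows (100 bp on either side) with a match (y axis, percent, with 95% Wilson intervals) for 10 consensus sequences (x axis) in null-alone sites, WT-alone sites, sites of every null list without WT and sites of all 4 lists. Crosses give the windows 2 kb from null-alone summits. Null-alone and WT-alone points lie close together, and both lie below the other classes for AP-1 and CTCF.

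Without regard to fold, the members held AP-1 and CTCF less often than sites called in every null list. AP-1 was present in 20.3% (19.4 to 21.1%) of WT-alone sites, 29.7% (28.6 to 30.8%) of sites of every null list without WT and 31.1% of sites of all 4 lists. CTCF was present in 4.63% of WT-alone sites, 9.46% (8.79 to 10.2%) of sites of every null list without WT and 10.1% of sites of all 4 lists. The members' shares of both were thus close to those of WT-alone sites as called, but with a −log10 q of 5 or more asked of the null list alone the AP-1 share was 10.2 percentage points above that of WT-alone sites, and with the same threshold in all lists it was 1.12 above. TEAD stood at 19.3% (18.5 to 20.1%), 20.2% (19.3 to 21.2%) and 20.7% in the same 3 classes, compared with 21.5% in members, so the members' interval cleared that of WT-alone sites by a narrow margin and overlapped the others. SP1 was present in 15.8% and ETS in 6.64% of sites of all 4 lists. Over autosomes the members' share ranged from 14.1 to 31.9% for AP-1, from 14.4 to 26.8% for TEAD and from 1.16 to 11.2% for CTCF.

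AP-1 matches were more frequent near the summit than at the ends of the window. Of 880 AP-1 matches in members, 459 (52.2%) had their centre within 40 bp of the summit, compared with 92 of 184 CTCF matches and 43.7% of 932 TEAD matches. The AP-1 matches per 100 members were 3.87 at 20 to 40 bp before the summit and 3.63 at 20 to 40 bp after it, fell to 2.72 and 2.12 in the 20 bp next to it, and were 1.05 and 1.56 at 80 to 100 bp. The highest AP-1 bins were therefore on either side of the summit and not at it. CTCF matches per 100 members were 0.78 and 0.887 at 20 to 40 bp before and after the summit, 0.618 in the 20 bp before it, 0.188 in the 20 bp after it, and 0.296 and 0.269 at 80 to 100 bp. The last 3 of these CTCF values rest on 7, 11 and 10 matches. Matches had to lie wholly within the window, so no centre could fall at its outermost positions. This lowers the values at 80 to 100 bp, more for the longer CTCF core than for AP-1.

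Within the members, the consensus sequences varied with fold. Quartiles, like the 10 groups of fold above, were cut by rank, so sites of equal fold at a boundary were divided by their order along the genome. From the lowest to the highest quartile of fold, the AP-1 share was 12.8, 17.8, 21.1 and 32.5%, with intervals of 10.8 to 15.1% and 29.5 to 35.5% at the ends. The TEAD share was 16.2, 18.2, 22.8 and 28.7%, and that of RUNX 17.5, 18.6, 23.1 and 26.6%. The E-box share went the other way, from 16 to 10.4%, as did median GC content, from 49.3 to 44.8%. The promoter share was 11.4% (9.51 to 13.6%) in the lowest and 8.39% (6.77 to 10.3%) in the highest quartile, with overlapping intervals. The share in gene bodies was 54.0, 49.8, 50.8 and 44.5%, lower at the highest quartile than at the lowest but without an order between them. CTCF showed no order either, at 4.3, 4.73, 5.71 and 4.73%. The quartiles of WT-alone sites, by their own fold, ran alike, with AP-1 at 11.7, 16, 22.8 and 30.6% and TEAD at 14.9, 15.7, 19.6 and 26.9%. In every quartile the intervals of the 2 classes overlapped for both consensus sequences.

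Since members were weaker than other null sites, classes were also compared within bins of null fold, which were set after the values had been seen. At a fold of 2.5 to 3, AP-1 was present in 16.8% of 1415 members (15.0 to 18.9%) and 19.3% of 1396 sites of every null list without WT (17.4 to 21.5%). At 3.5 to 4 the shares were 31.0% (26.7 to 35.6%) and 34.0% (31.3 to 36.8%), and below 2.5 they were 10.7% (8.42 to 13.6%) and 16.6% (13.4 to 20.2%). Against this class, members had the lower share in each of the 6 bins, and the intervals overlapped in the 5 bins below a fold of 5. At 5 or more they did not, at 32.4% (25.2 to 40.5%) of 142 members and 43.5% (40.6 to 46.6%) of the other class. Against sites of all 4 lists the order of the AP-1 shares changed with fold. Members had the lower share below 2.5, where those sites had 17.5% (14.7 to 20.8%), and at 2.5 to 3, where those sites had 20.7%. In neither of these bins did the intervals overlap. At 3 to 3.5 members were also lower, at 22.8% compared with 24.9%, but the intervals overlapped. Members had the higher share at 3.5 to 4 and 4 to 5, where those sites had 25.5% (24.1 to 26.9%) and 29.6% (28.6 to 30.6%). The members' shares there were 31.0 and 34.2% (29.4 to 39.5%), with intervals that overlapped those of the other sites. At 5 or more the shares were 32.4% in members and 33.2% in sites of all 4 lists. For CTCF the distance held at like fold. The share in members was 3.1, 5.02, 6.11, 4.63 and 3.57% over the 5 bins below a fold of 5, compared with 12, 10.5, 9.92, 11 and 8.75% in sites of every null list without WT, and the intervals did not overlap in any of these bins. At 5 or more, with 9 members carrying a core, they did overlap, at 6.34% (3.37 to 11.6%) and 5.49%. TEAD was more frequent in strong members. At a fold of 4 to 5 it was present in 32.7% of 336 members (27.9 to 37.9%) and 21.8% of the other class (19.6 to 24.1%), and at 5 or more in 38.7% (31.1 to 46.9%) and 25.2% (22.7 to 28%), whereas the intervals overlapped in all 4 lower bins.

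**Figure D3:**
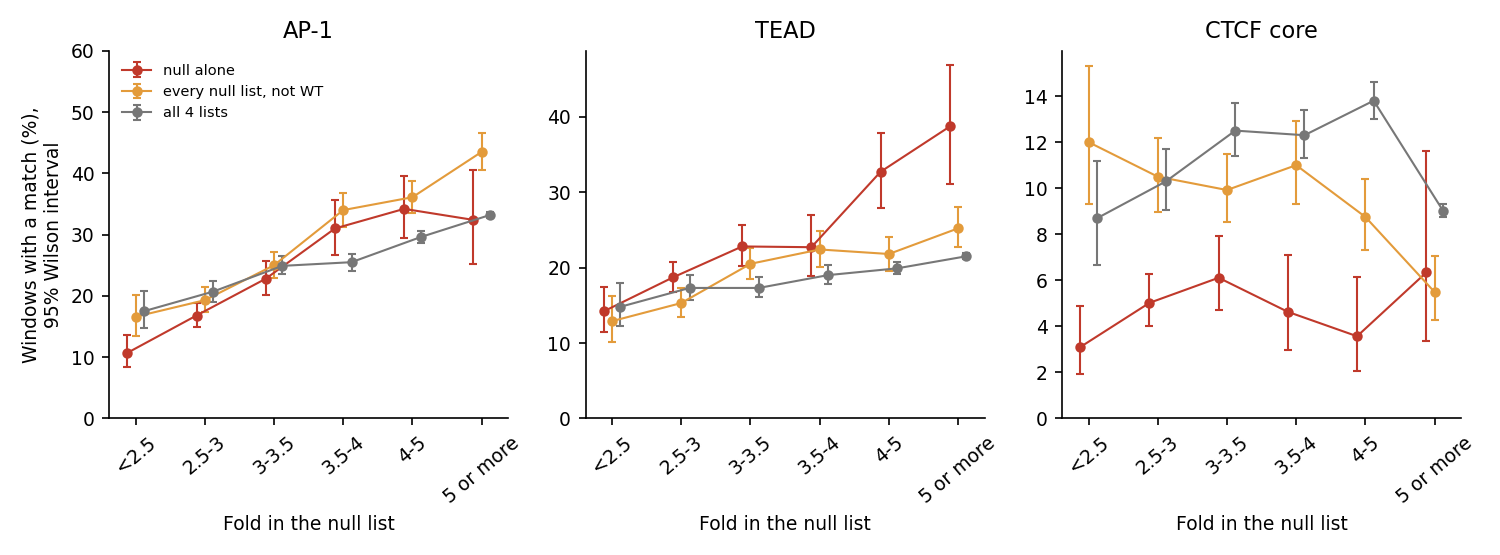
Share of summit windows (100 bp on either side) with an AP-1, TEAD or CTCF match (y axes, percent, 95% Wilson intervals, each axis with its own scale) in 6 bins of fold in the null list (x axes), for null-alone sites, sites of every null list without WT and sites of all 4 lists. AP-1 rises with fold up to the bin of 4 to 5 in all classes and is 32.4% in null-alone sites of fold 5 or more, CTCF is lower in null-alone sites in the 5 lower bins, and TEAD is highest in null-alone sites of fold 4 and above.

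The null-alone share of null sites differed between chromosomes by more than counting error. It was lowest on chromosome 11, at 86 of 4135 sites (2.08%, 1.69 to 2.56%), and highest on chromosome 10, at 356 of 5021 (7.09%, 6.41 to 7.83%). Chromosomes 18 and 16 followed, at 6.47% and 6.24%. Without chromosome 10 the share over the remaining autosomes was 4.6%. The WT-alone share had another order, from 5.72% on chromosome 19 to 13.7% on chromosome 14, and was 11.6% on chromosome 10. Between the null-alone and WT-alone shares the Pearson r was -0.04 and the Spearman rho -0.18. With the share of null sites called in every null list without WT, the null-alone share had an r of 0.54 and a rho of 0.62. At sites of all 4 lists, the median log2 ratio of null to WT pileup, each divided by its genome-wide background, ranged from 0.40 on chromosome 14 to 0.84 on chromosome 18 and was 0.79 on chromosome 10. Over the 19 chromosomes it moved with the null-alone share, with a Pearson r of 0.82 and a Spearman rho of 0.81, given as a description because both measures rest on the same null and WT lists. Over 241 stretches of 10 Mb the same relation was weaker, with an r of 0.40 and a rho of 0.44. The part of this ratio in the null-alone share was not tested.

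**Figure D4:**
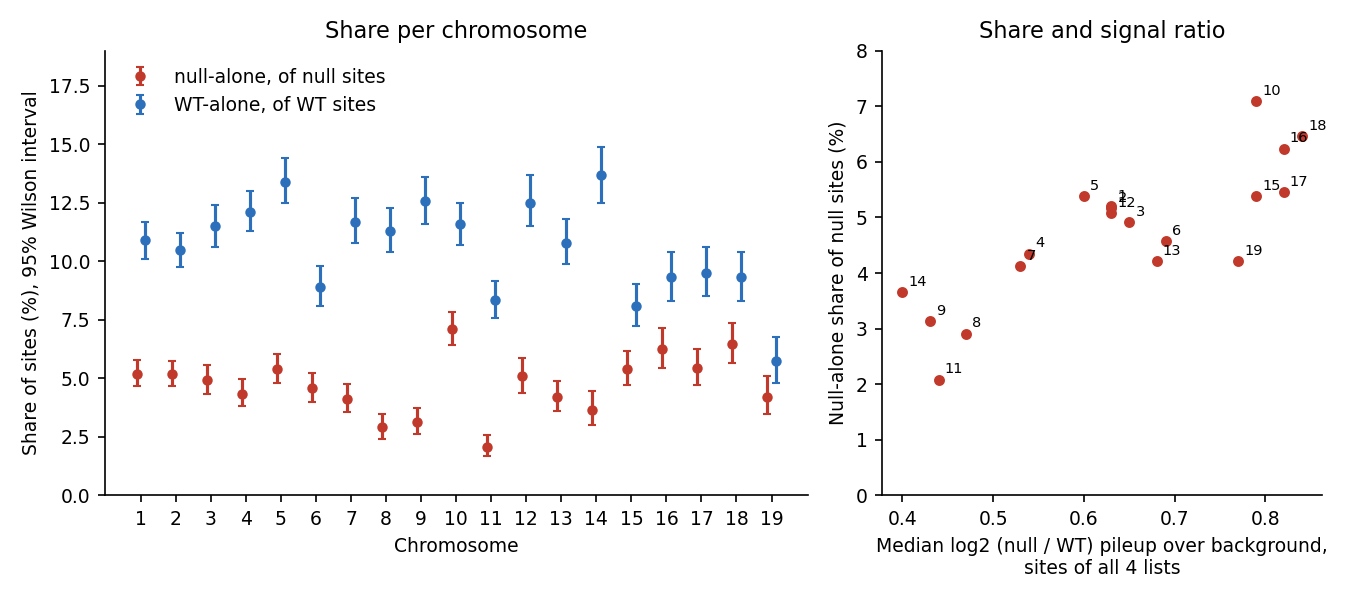
Left, share of null sites that were null-alone and of WT sites that were WT-alone (y axis, percent, 95% Wilson intervals) on chromosomes 1 to 19 (x axis), with null-alone shares between 2.08 and 7.09%. Right, null-alone share (y axis, percent) against the median log2 ratio of null to WT pileup over background at sites of all 4 lists (x axis), 1 point per chromosome, labelled by number.

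Null-alone sites were spread over every autosome but not evenly. In 241 stretches of 10 Mb with at least 100 null sites, a length chosen after the values had been seen, the null-alone share had a median of 4.66% and ranged from 0.261 to 19%. The highest was the stretch from 100 to 110 Mb of chromosome 10, with 38 null-alone sites among 200 null sites, where 37 of 186 WT sites (19.9%) were WT-alone. In windows of 1 Mb, 3 windows of chromosome 10 held 12 members each. They began at 52 Mb (12 of 32 null sites, around Slc35f1 and Nus1), 126 Mb (12 of 45, around Lrig3) and 108 Mb (12 of 55, around Syt1 and Ppp1r12a). A window of chromosome 7 that began at 132 Mb held 11 of 68, and 2 windows held 10, 1 on chromosome 10 that began at 119 Mb (10 of 26, partly in Grip1) and 1 on chromosome 18 that began at 73 Mb (10 of 40, around Smad4 and Mapk4). In these 6 windows 16.1 to 43.5% of WT sites were WT-alone, with 6 of 27 from 52 Mb, 19 of 52 from 126 Mb, 10 of 49 from 108 Mb and 10 of 23 from 119 Mb of chromosome 10, 11 of 64 on chromosome 7 and 5 of 31 on chromosome 18.

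Long genes held the most members. At least 1 null-alone summit lay in the body of 1449 protein-coding genes, 6.96% of the 20807 on chromosomes 1 to 19. Their median length was 100512 bp, compared with 17629 bp for all. Fgfr2, a fibroblast growth factor receptor whose annotation spans 2960900 bp here, held 16 members among 176 null sites. Macrod2, a hydrolase of mono-ADP-ribose, held 8 of 67, and Nav3, a microtubule-associated neuron navigator, held 7 of 16. Mgat5, which branches N-glycans, Snx29, and Unc13c, a priming factor of synaptic vesicles, had 6 each, as did Grip1, Plcb1, Negr1, Gpc6, Anks1b and Rbfox1. In Negr1, a neural adhesion protein, the 6 were among 14 null sites, and in Grip1, a scaffold of glutamate receptors, also among 14. Nav3 and Negr1 had 0 WT-alone sites, whereas Grip1 had 10 and Fgfr2 21. By density among genes of at least 50 kb, Irak3, an inhibitor of Toll-like receptor signalling, led with 3 members among 5 null sites, 4.96 per 100 kb. Tmem182, Nek5, Jam2 and Papola followed with 2 each, or 3.69 to 3.9 per 100 kb.

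In 3 of these genes, Nav3, Negr1 and Unc13c, the members were weaker than the sites of all 4 lists beside them, but not than every other null site. In Nav3 their folds were 3.22 to 4.91, compared with 6.38 to 15.86 for the 3 sites of all 4 lists, and 3 members lay at 691.5, 703.1 and 709.3 kb from the start of the gene. In Negr1 the folds of members were 2.29 to 5.4, and the 2 sites of all 4 lists had 12.76 and 13.44. In Unc13c they were 2.94 to 4.09, compared with 6.21 to 19.52 at 8 sites of all 4 lists and 2.62 to 4.41 at 3 null sites shared with some of the lists. One Unc13c member, with a fold of 4.09, lay 144 bp from an internal TSS that had no peak of another list.

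**Figure D5:**
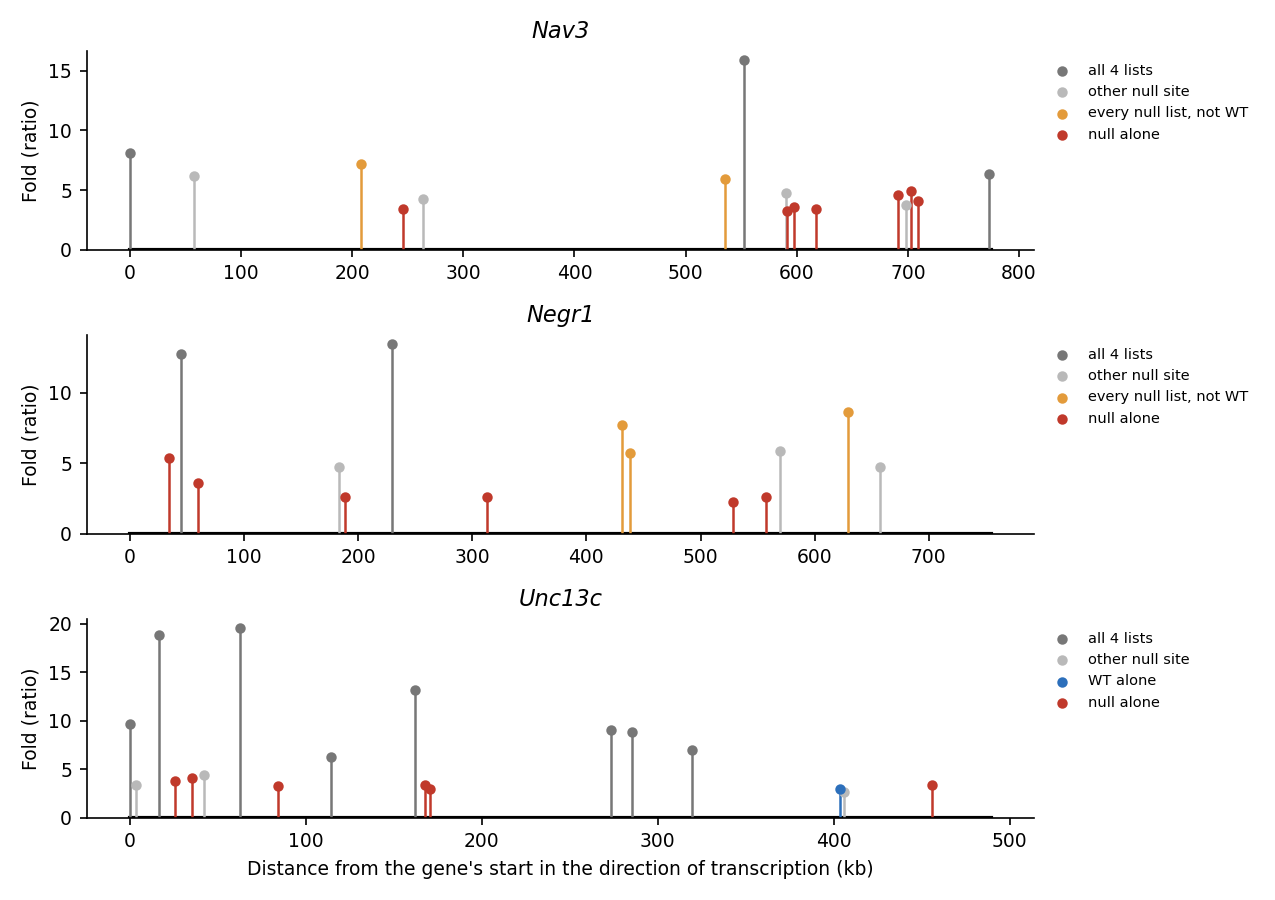
Null sites and WT-alone sites in Nav3, Negr1 and Unc13c by distance of the summit from the start of the gene (x axes, kb, in the direction of transcription) and fold in the null list, or in the WT list for WT-alone sites (y axes, ratio). Black lines show the gene bodies, and null-alone sites, in red, reach folds of 4.91, 5.4 and 4.09 in the 3 genes.

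Gene lists for fibroblast, developmental and cell cycle functions were examined for a null-alone summit within 100 kb of a TSS. All protein-coding genes gave 25.9% for this distance, 4.21% within 10 kb and 0.74% within 1 kb. Of the fibroblast matrix genes 3 of 20 had one (Fbn1, Lox and Vim), all over 10 kb away, and of the mesenchymal transcription factors 3 of 16 (Snai1, Zeb2 and Osr2). Skeletal genes had 4 of 14, with the highest fold, 4.41, at a site 44923 bp from Sox9, the master factor of cartilage. The H2A.Z machinery, which holds H2A.Z genes, its exchange complexes and Anp32e, had 0 of 10, and the pluripotency list 0 of 8. For 5 of each of these 2 lists, a WT-alone site lay within 100 kb. The AP-1 genes had 2 of 8 (Fosl2 and Atf3), the adipogenic genes 1 of 10 (Cebpb, at the same site as Snai1), and the epithelial genes 2 of 11, Krt8 and Krt18, which shared 1 site.

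As in the skeletal list (28.6%), shares above that of all genes were found in 5 lists of 10 to 20 genes each, and no test was made of them. Of the cell cycle genes 6 of 16 had a member within 100 kb, among them Cdkn1a, an inhibitor of cyclin-dependent kinases, with a fold of 3.27 at 65783 bp, and Ccnb1, mitotic cyclin B1, with 3.22 at 58518 bp, and 0 within 10 kb. Endothelial and blood genes had 5 of 10, including Cdh5, VE-cadherin, with a fold of 3.64, and Spi1, the blood factor PU.1, with 2.94 at 3213 bp. Neural genes had 5 of 15, of which Pax6 (3.37), Neurod1 (2.79) and Nkx2-2 (2.6) were within 10 kb. Axon guidance and adhesion genes, with a median length of 423430 bp, had 7 of 20 within 100 kb and 11 with a member in the gene body, against 6.96% of all genes. Their highest fold, 6.54, was in Unc5c, a netrin receptor, 54187 bp from the TSS. Myogenic genes had 3 of 10. One of these was Myod1, the master factor of skeletal muscle, which had a member 260 bp from its TSS with a fold of 2.71 and 16 fragments, and a TSS peak was called there in the null list and in none of the other 3. The WT-alone sites, more numerous than the null-alone sites, came within 100 kb of 46.8% of all genes, 13 of the 16 cell cycle genes and 8 of the 10 myogenic genes. In the other lists of this paragraph they came within 100 kb of 6 of 10 endothelial and blood, 11 of 20 axon guidance and adhesion, 8 of 15 neural and 7 of 14 skeletal genes.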

How the data were processed

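ATAC-seq libraries of 9 samples were grouped by their labels. Per the study's methods and processing notes, the authors aligned reads to mm10 (GRCm38) with Bowtie2, discarded duplicates with Picard and ran MACS2 on paired fragments of each group's merged libraries. Each deposited list gives, per peak, a fold enrichment (ratio over local background, pseudocount 1), −log10 p-values and q-values, a summit offset and an integer score, which was not used. The siRNA lists lack 74 and 79 of their running peak numbers, so some peaks had been filtered out before deposit, and the WT and null lists still hold 5 and 6 mitochondrial peaks. Only 1 null-alone site lay between the neighbours of an absent number in each siRNA list.

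Fragment pileups were solved from the deposited fold and −log10 p under the Poisson model of MACS2, and at least 99.998% came within 0.05 of a whole number. The solver and the site rule were tested on simulated data. Lists hold 80433 to 105816 peaks on chromosomes 1 to 19. TSSs and genes are GENCODE M21 (132629 TSS positions). The null-alone sites and all lists were chosen with earlier results of these data known. Named sites are the 10 of highest fold, the 5 strongest at coding promoters, the 5 widest, the genes with most members or the highest density, the 5 richest 1 Mb windows with 1 tied for the fifth place, 1 gene or more per list, and the sites nearest the edge of the rule. Myod1's TSS and the fold bins were picked after the values were seen. For a site with several peaks the one of highest fold stood for it. Shares carry 95% Wilson intervals. No test was made, as 1 list per group leaves no replicates. Alternatives changed the calling threshold, list length, overlap, merging distance, chromosomes, depth, promoter width, TSS set and window, and 2 more (chromosome 10 left out, soft-masked sites left out) were added after the data were seen. Python 3.11.15, NumPy 2.4.6, SciPy 1.17.1, pandas 2.3.3, pysam 0.24.0 and matplotlib 3.10.9 were used.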

Additional observations from a re-analysis of the deposited data

How the results depend on the processing

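No paired analysis was possible because peaks had been called on the merged libraries of each group, and for the same reason no library could be left out. Of 188 recomputed values, 133 stayed within their limits (1.5 times for counts and their ratio, the main Wilson interval for shares, 1 SD over autosomes for medians and differences), 48 moved and 7 changed sign. The causes of these changes were not tested, except that stricter settings keep fewer peaks and shorter windows hold fewer matches.

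With a −log10 q of 5 or more in null alone, there were 1197 null-alone sites (1.8% of null sites, 0.122 per WT-alone site), with a median fold of 3.76, 24 fragments, GC 45.3%, promoters 8.77%, gene bodies 46.5%, AP-1 30.3% and TEAD 29.0%. Their AP-1 and TEAD shares were 10.2 and 9.72 percentage points above those of WT-alone sites, and the GC difference turned from 0.498 to -1.49. With that threshold in all lists, there were 1687 sites (2.53%), with a fold of 3.76, 24 fragments, GC 45.8%, promoters 11.1%, gene bodies 47.2%, AP-1 28%, TEAD 27.7% and CTCF 6.05%. Equal list lengths of 80433 peaks gave 5715 sites (7.31%), 20 fragments, promoters 12.6% and gene bodies 53.2%. Reciprocal and summit overlap counted single null peaks and not merged sites, so their shares are of 80433 null peaks. Reciprocal overlap of 50% gave 7770 peaks (9.66%), 20 fragments, promoters 14.8%, gene bodies 53.2%, CTCF 6.54% and TEAD 19.2%. Summit overlap gave a share of 5.29% and promoters 10.9%. Merging across 1000 bp gave 4.19%, AP-1 22.8% and a CTCF difference from WT-alone sites of -0.119 in place of 0.235 percentage points. Scaling null to the NT siRNA depth gave 4.29%, a fold of 3.11 and 19 fragments. The share was 4.6% without chromosome 10 and 4.57% without soft-masked sites. Promoters of 500 bp held 7.21% and those of coding TSSs 4.54%. Windows of 50 bp on either side of the summit gave AP-1 13.6%, TEAD 11.8% and CTCF 2.98%. The promoter share minus that of WT-alone sites, -0.616 percentage points as reported, was 0.56 with the threshold in all lists, 1.89 with equal lengths, 1.06 by reciprocal overlap, 0.0548 by summit overlap and 0.0841 with 500 bp promoters.

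Of 26 list counts at 10 kb or in gene bodies, 19 moved over 1.5 times from those at 100 kb. Summits of 13 fragments upward limit single sites, since a few fragments decide a call near the threshold.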

Other observations

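Members with an AP-1 match also carried GATA more often than the other members, at 11% of 783 compared with 7.9%, and CTCF less often, at 2.55% compared with 5.48%. TEAD was present in 22.2% of members with AP-1 and 21.3% of those without, and RUNX in 20.7% and 21.7%. The E-box was present in 10.7% and 13.4%, SP1 in 2.17% and 3.81%, and ETS in 1.15% and 2.35%. NF-Y was present in 24.3% and 23.2%, and the homeobox core in 4.6% and 4.19%. No intervals were computed for these shares. These pairs were looked at after the shares of single consensus sequences were known, and no test was made.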
